A study of Mus musculus with 2 samples.

Results

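Pericytes were taken as the kept cells with at least 3 UMIs (unique molecular identifiers, each standing for 1 captured transcript) summed over 6 mural cell genes, namely Rgs5, Notch3, Kcnj8, Abcc9, Higd1b and Cspg4. The sum also had to be larger than that of Myh11, Actg2, Cnn1 and Hhip, which mark smooth muscle. Cells with 12 or more UMIs of Epcam, Krt8, Krt18 and Cldn7, or with 2 or more of Pecam1, Cdh5 and Flt1, were left out as epithelial or endothelial. The rule found 126 of 26153 kept cells. Of these, 44 came from the 12270 kept cells under the WT label and 82 from the 13883 under the STK25 wKO label. Because the members were picked by these genes in these same cells, the levels of these genes and the ratios of members to other cells are given as a description.

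Pericytes are mural cells embedded in the basement membrane of capillaries and small venules, where they share that membrane with the endothelium. Endothelial PDGF-B recruits them through the receptor Pdgfrb, and Notch3 receives Notch ligands from the endothelial side. They regulate vessel calibre and permeability, and in tumours their coverage of vessels is often loose and uneven.

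The tissue was colorectal tumour that arose in mice after azoxymethane and dextran sulphate sodium (AOM/DSS), a carcinogen followed by an agent that inflames the colon. Both groups had this treatment and differed in genotype, WT against STK25 wKO, which the study describes as a global knockout. The allele, the ages of the mice and the number of tumours behind a library are not given in the sources used here. Tumours of a group were pooled and dissociated with trypsin-EDTA, and each pool gave 1 library of 10x Genomics 3′ single-cell RNA sequencing. With 1 library per group, no difference between genotypes has a replicate check, and no test was made. All intervals are 95% intervals that cover counting error only. The text of the series names a sort on an mCherry signal that the sample protocols do not mention, and its effect on the share of any cell type was not tested.

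The kept cells had a median of 1383 UMIs under the WT label and 2091 under the STK25 wKO label. Stk25, the targeted kinase, had 7 and 14 UMIs in the members, or 42.4 (17.0 to 87.4) and 66.9 (36.6 to 112) CPM (its UMIs per 1000000 of all UMIs). In the other kept cells it stood at 118 and 127 CPM, so the transcript counted from its 3′ end was not lower in the library labelled STK25 wKO. A 3′ count may not see the part of a gene that a knockout removes. The libraries shared 230 cell barcodes, of which 0 belonged to members. Scrublet set its automatic threshold where 0 cells were called doublets. When instead the 1204 and 1542 highest scores were removed, 1 and 3 members went with them.

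The members of the library labelled WT had a median of 2976 UMIs per cell (721 to 12237) and those of the library labelled STK25 wKO a median of 1828 (640 to 14382). The 6 rule markers had a median of 5 UMIs per member, with a highest value of 34, under the WT label, and a median of 6 with a highest value of 127 under the STK25 wKO label. The member with 127 was also the deepest member, with 14382 UMIs, and held 91 UMIs of Rgs5 and 53 of Acta2 together with 64 UMIs of immune genes. Most members thus lay close to the threshold, and 10 and 20 of them had exactly 3 UMIs. Among the members with exactly 3, Dcn, the fibroblast proteoglycan decorin, had a UMI in 70% and 45%. Just outside the threshold, 28 and 43 cells had a sum of 2, and of these 57.1% and 46.5% had a UMI of Dcn and 39.3% and 18.6% a UMI of Ptprc, the pan-leukocyte gene. UMIs of at least 3 of the 6 markers were seen in 17 members (38.6%) and 34 members (41.5%). The other limits of the rule removed few cells by comparison with the endothelial limit. That limit left out 20 and 50 cells with enough rule-marker UMIs, the smooth muscle limit 6 and 11, and the epithelial limit 0 and 8.

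Genes of pericyte identity that the rule did not use went with it. Of 18 such genes with at least 20 UMIs in the members, 13 had a log2 ratio of 2 or more over the other kept cells in both libraries (20 CPM added to both values), where 4.77% of the 3794 genes with at least 20 UMIs did. Members with at least 5 UMIs of the fibroblast genes Dcn, Lum, Pdgfra, Adamdec1, Pi16 and Clec3b are called fibroblast-marked below, and the other members fibroblast-poor. In the 29 fibroblast-poor members under the WT label and the 65 under the STK25 wKO label, the count was 15 of 17 identity genes against 7.23% of 2005 genes. Both counts describe cells that were chosen by correlated genes, and they carry no test. Pdgfrb, the PDGF-B receptor, stood at 445 CPM (305 to 629) and 452 CPM (346 to 579) in the fibroblast-poor members, against 7.30 and 6.55 CPM in the other kept cells. Vtn, which encodes the adhesive glycoprotein vitronectin, stood at 167 and 182 CPM in them and at 0 in the smooth muscle cells of both libraries. Ndufa4l2, a protein of mitochondrial complexes known from hypoxic and mural cells, stood at 306 and 415 CPM, against 0 and 16.2 CPM in smooth muscle cells. Smooth muscle cells, fibroblasts and endothelial cells were also found by UMI rules, so these contrasts rest on few genes.

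**Figure D1:**
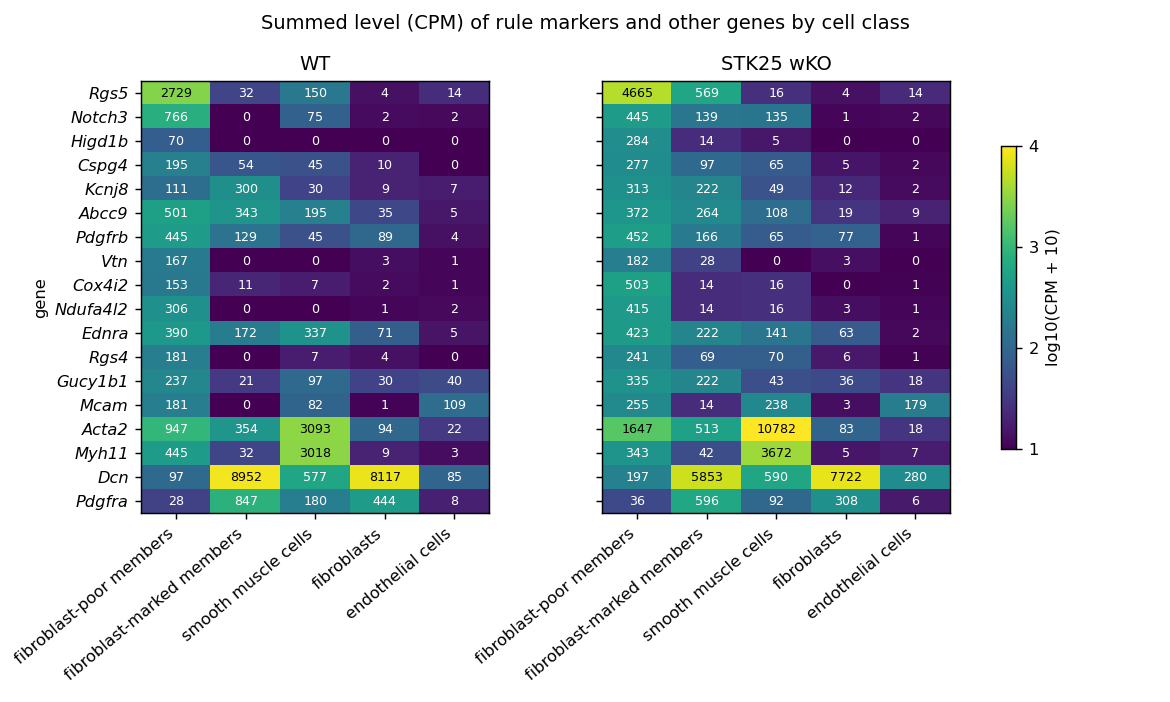
Summed level (CPM, printed in each cell and coloured on a log10 scale after adding 10 CPM) of 18 genes in 5 cell classes of each library. Rgs5 stood at 2729 and 4665 CPM in fibroblast-poor members and at no more than 149.8 CPM in smooth muscle cells, fibroblasts and endothelial cells, while Dcn stood at 8952 and 5853 CPM in fibroblast-marked members. Rgs5 picked the members, and the rules of the other 3 classes limited UMIs of the rule markers. Dcn was used to call members fibroblast-marked, so both contrasts follow in part from the rules.

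The genes that went furthest with the rule in fibroblast-poor members were Prkg1, Acta2, Dlc1, Myl9, Pdgfrb, Ednra, Gjc1, Ndufa4l2, Tagln, Sparcl1, Sox5, Cald1, Col5a3, Plcl1 and Sept4, ranked by the smaller of the ratios over other cells in the 2 libraries. Over all members the corresponding 15 included fibrillar collagens and other genes that fibroblasts also use, among them Col1a1, Col3a1, Col5a2, Col6a3, Sfrp1 and Serping1. Prkg1, the cGMP-dependent kinase that relaxes mural cells, stood at 1559 and 1319 CPM in the fibroblast-poor members and at 1849.7 and 1868 CPM in smooth muscle cells. Ednra, the endothelin A receptor, stood at 389.8 and 423 CPM, against 337 and 141 CPM in smooth muscle cells. Gjc1, which encodes the gap junction protein connexin 45, stood at 348 and 401 CPM, against 119.8 and 146 CPM. Prkg1 and Ednra were thus shared with smooth muscle cells, whereas Vtn, Cox4i2 and Ndufa4l2 stood at no more than 16.2 CPM in smooth muscle cells, fibroblasts and endothelial cells.

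The members were not uniform. In the library labelled WT, 15 of 44 were fibroblast-marked and held 56.5% of all member UMIs, and in the library labelled STK25 wKO 17 of 82 were, with 34.4%. This split was chosen after the data were seen. Of the 15 fibroblast-marked members of the library labelled WT, 13 had no UMI of Rgs5, 0 had a UMI of Notch3, and all 15 had a UMI of Kcnj8 or Abcc9. Their Dcn UMIs ran from 2 to 148 with a median of 43. In the library labelled STK25 wKO, Rgs5 was seen in 9 of the 17 and Notch3 in 5. Rgs5, a regulator of G protein signalling that marks pericytes, stood at 32.2 and 569 CPM in fibroblast-marked members and at 2729 and 4665 CPM in fibroblast-poor members. Notch3 stood at 0 and 139 CPM in the former and at 766 and 445 CPM in the latter. Rgs5 and Notch3 picked the members and the fibroblast genes made the split, so these levels describe the choice and do not bear on the label. Of genes that neither used, Ndufa4l2 stood at 0 and 13.9 CPM and Mcam at 0 and 13.9 CPM in fibroblast-marked members, against 306 and 415 CPM and 181 and 255 CPM in fibroblast-poor members. Pdgfrb, at 129 and 166 CPM, and Ednra, at 172 and 222 CPM, were counted in fibroblast-marked members as well. Other identity genes outside the rule were not lower there in both libraries. Cd248 stood at 172 and 125 CPM in fibroblast-marked members and Gucy1a1 at 139 and 347 CPM. In fibroblast-poor members with fewer than 20 UMIs of blood cell genes, Cd248 stood at 13.9 and 77.3 CPM, on 1 and 9 UMIs, and Gucy1a1 at 432 and 266 CPM. Since the rule accepts any 3 UMIs of its 6 markers, it took in cells of both descriptions, and results are given for all members and for the fibroblast-poor members.

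**Figure D2:**
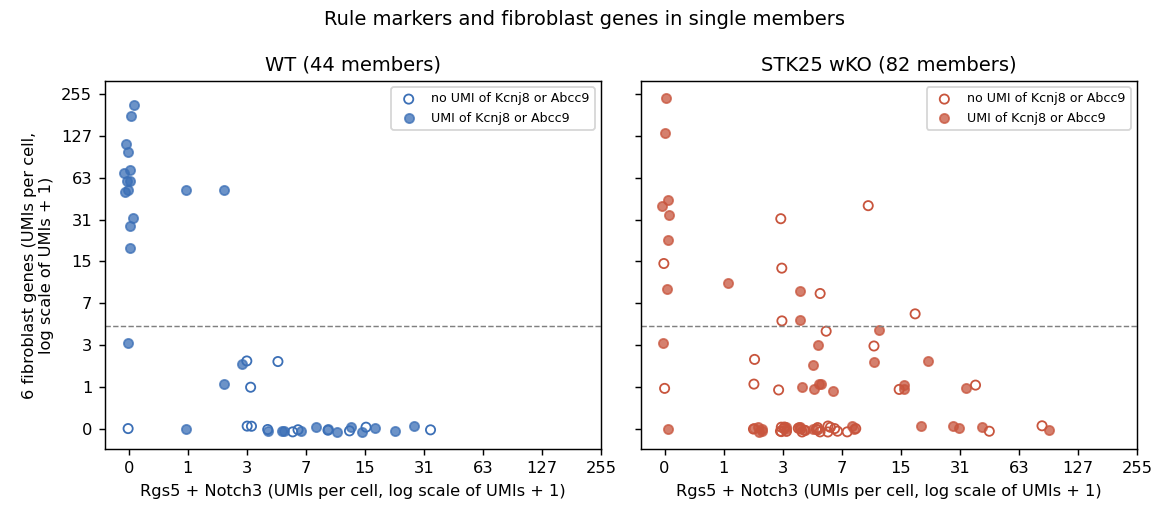
UMIs per cell of Rgs5 and Notch3 (horizontal, log scale of UMIs + 1) against UMIs of the 6 fibroblast genes (vertical, log scale of UMIs + 1) for each of the 44 and 82 members, with filled points for cells with a UMI of Kcnj8 or Abcc9. The dashed line separates the 15 and 17 fibroblast-marked members above it, and in the library labelled WT all of these are filled and 13 lie at 0 UMIs of Rgs5.

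Kcnj8 and Abcc9 encode the pore and the sulphonylurea receptor of the vascular potassium channel that ATP closes, and open channels relax mural cells. They are neighbours on the minus strand of chromosome 6 in GRCm38, Kcnj8 at chr6:142564837-142571614 and Abcc9 at chr6:142587862-142702315, with 16247 bases and 0 other gene records between them. Kcnj8 had 36 and 59 UMIs in all members, in 16 and 26 cells, and Abcc9 had 68 and 70 UMIs, in 28 and 35 cells. Both genes had UMIs in the same cell in 13 members of the library labelled WT, 9 of them fibroblast-marked. In fibroblast-poor members Kcnj8 stood at 111 and 313 CPM and Abcc9 at 501 and 372 CPM, and in fibroblast-marked members at 300.2 and 222 CPM and at 343 and 264 CPM. With 3 UMIs of Rgs5, 5 of Cspg4 and 0 of Notch3 and Higd1b in all 15 fibroblast-marked members under the WT label, nearly all of these cells could reach the limit of 3 UMIs only through the channel genes. Their levels there, and the 9.16 and 11.7 CPM of Kcnj8 in fibroblasts outside the rule, thus follow in large part from the rule. The promoter windows of both genes, 250 bases before to 50 bases after the RefSeq start in GRCm38.p6, are shown because UMIs of these genes brought both kinds of member into the rule. Kcnj8 is read from the minus strand at chr6:142571565-142571864 and Abcc9 from the minus strand at chr6:142702225-142702524. Capitals mark the letters TGGGAA, the core that the Notch partner RBPJ reads, and ACGTG or GCGTG, the core that hypoxia-inducible factors read, on either strand.
Kcnj8: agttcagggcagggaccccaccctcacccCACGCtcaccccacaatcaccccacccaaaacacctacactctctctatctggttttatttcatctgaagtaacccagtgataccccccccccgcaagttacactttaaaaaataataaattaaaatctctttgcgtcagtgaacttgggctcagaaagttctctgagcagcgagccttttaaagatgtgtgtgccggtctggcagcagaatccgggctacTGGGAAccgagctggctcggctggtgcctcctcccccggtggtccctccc
Abcc9: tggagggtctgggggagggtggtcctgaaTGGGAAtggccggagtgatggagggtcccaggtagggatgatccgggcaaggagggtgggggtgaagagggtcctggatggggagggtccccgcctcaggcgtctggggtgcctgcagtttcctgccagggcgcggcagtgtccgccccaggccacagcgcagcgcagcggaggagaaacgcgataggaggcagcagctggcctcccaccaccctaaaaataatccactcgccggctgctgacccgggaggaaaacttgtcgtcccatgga
Each window held 1 match to TGGGAA, as did 25.6% of 32851 such windows at 1 or more, and the Kcnj8 window also held 1 match to the hypoxia core (CACGC, its reverse strand), present in 43.8% of windows. Neither held a CArG box, which serum response factor reads and which 1.63% of windows held. A match is a description of letters and not a site.

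Rgs5 lies at chr1:169655501-169695813 on the plus strand, and the other rule markers are described with it. Its UMIs per member ran from 0 to 30 with a median of 3 under the WT label and from 0 to 91 with a median of 4 under the STK25 wKO label. With every cell thinned to 1000 UMIs, which left out 3 and 14 shallower members, 56.1% (39.7% to 71.5%) of 41 members and 73.5% (61.4% to 83.5%) of 68 members had a UMI of Rgs5, against 61.4% and 84.1% unthinned. In thinned B cells, which should lack the gene, the share was 0.725% and 0.476% in the same libraries, whose B cells had median depths of 1592.5 and 1771 UMIs before thinning. These B cells had to have fewer than 3 UMIs of the rule markers, Rgs5 among them, so their share was held low in part by that limit. The part of free RNA in the Rgs5 UMIs of members was not tested. Higd1b, a mitochondrial inner membrane protein of the hypoxia-inducible domain family, had 5 and 40 UMIs, of which 16 of the 40 came from 1 cell. Cspg4, the proteoglycan NG2, had 19 and 45 UMIs. Their summed levels were 30.3 (9.83 to 70.7) and 191 (137 to 260.3) CPM for Higd1b and 115 (69.3 to 179.7) and 215 (157 to 288) CPM for Cspg4.

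Members made up 0.359% (exact interval 0.261% to 0.481%) of kept cells under the WT label and 0.591% (0.470% to 0.733%) under the STK25 wKO label, a ratio of 1.65 (1.13 to 2.43). Per 100 endothelial cells there were 14.2 and 17.0 members, a ratio of 1.20 (0.796 to 1.82). The larger share of kept cells thus came with more endothelial cells in the same library, and the ratio of members to endothelial cells was within counting error of no difference. Per 100 fibroblasts there were 10.5 and 14.3 members (ratio 1.37, 0.914 to 2.06) and per 100 smooth muscle cells 110 and 161 (ratio 1.46, 0.809 to 2.64). Fibroblast-poor members made up 0.236% and 0.468% of kept cells, a ratio of 1.98 (1.26 to 3.18), and 9.39 and 13.5 per 100 endothelial cells, a ratio of 1.44 (0.892 to 2.37). The direction turned when members with UMIs of immune genes were left out. At least 1 UMI of Ptprc, Cd3e, Cd79a, Lyz2 or Csf1r was seen in 40.9% and 65.9% of members, and without those cells 26 and 28 members were left, with a ratio of 0.952 of kept cells and 0.692 per endothelial cell. The same 5 genes stood at 616 and 957 CPM in all other kept cells, at 204 and 821 CPM in fibroblasts and at 952 and 1008 CPM in endothelial cells. Their part in the shares was not tested.

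**Figure D3:**
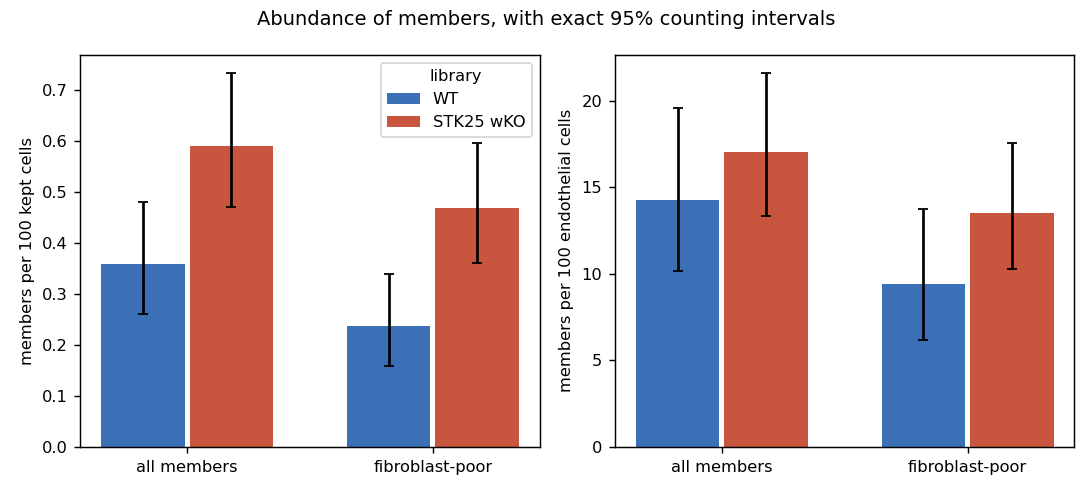
Members per 100 kept cells (left) and per 100 endothelial cells (right) in each library, for all members and for fibroblast-poor members, with bars from 0 and exact 95% counting intervals. The ratio of the libraries was 1.65 and 1.98 per kept cell, and 1.20 and 1.44 per endothelial cell. The intervals of the libraries overlap for all members in both panels and for fibroblast-poor members per endothelial cell. Per kept cell those of fibroblast-poor members do not overlap, at 0.158 to 0.339 and 0.362 to 0.596.

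Levels in the members of the 2 libraries were compared as log2 ratios of CPM, STK25 wKO over WT. Of 3794 genes with at least 20 UMIs over all members, 4.48% had a log2 ratio of 1 or more and 5.17% of -1 or less after 20 CPM were added to both values. Among the 2005 genes with that many UMIs in fibroblast-poor members, the shares were 8.98% and 9.78%. These shares are the background for the counts of listed genes past 1, which use the same 20 CPM, as do the medians of lists. Log2 ratios of single genes have nothing added. The median over all genes was -0.004 for all members and 0.06 for fibroblast-poor members, so neither set was shifted as a whole.

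The genes of pericyte identity outside the rule had a median log2 ratio of 0.73 over all members, with 5 of 18 at 1 or more (Cox4i2, Gucy1b1, Des, Rgs4 and Art3) and 0 at -1 or less. The share at 1 or more was 27.8%, against 4.48% over all genes. In fibroblast-poor members the median was 0.11, with 2 of 17 at 1 or more (Cox4i2 and Art3) and 2 at -1 or less (Ebf2 and Ednrb). The gap over all members was thus smaller where the fibroblast-marked members were left out. Pdgfrb had 32 and 62 UMIs in fibroblast-poor members and a log2 ratio of 0.02 (-0.62 to 0.68). Ebf1, a transcription factor of mural cells, had 115 and 228 UMIs and a log2 ratio of 0.05 (-0.28 to 0.39), and Vtn had 12 and 25 UMIs and a log2 ratio of 0.13 (-0.92 to 1.25). These core genes had similar levels in the libraries within wide intervals.

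The share of 2 of 17 at 1 or more was 11.8%, near the 8.98% over all genes. Of these 2 genes, Cox4i2 encodes the isoform of cytochrome c oxidase subunit 4 used under low oxygen and marks pericytes in many tissues. In fibroblast-poor members it had 11 UMIs in 6 of 29 cells and 69 UMIs in 22 of 65 cells, or 153 (76.4 to 274) and 503 (391 to 637) CPM, a log2 ratio of 1.72 (0.79 to 2.78). Art3, an ADP-ribosyltransferase family member, had 4 and 32 UMIs in 4 and 18 cells and a log2 ratio of 2.07 (0.57 to 4.03). No cell held more than 27.3% of the Cox4i2 UMIs of its library or more than 25% of the Art3 UMIs. Ebf2, another factor of the Ebf family, had 15 and 11 UMIs and a log2 ratio of -1.38 (-2.65 to -0.16). Ednrb, the endothelin B receptor, had 32 and 24 UMIs and a log2 ratio of -1.35 (-2.18 to -0.54), and 75% of its UMIs in the library labelled WT came from 1 cell.

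Basement membrane genes were split by the kind of member. Over all members 0 of 16 lay past a log2 ratio of 1 in either direction and the median was -0.25. In fibroblast-poor members 4 of 11 (36.4%) lay at 1 or more, against 8.98% of all 2005 genes. At -1 or less lay 0, against 9.78%, and the median was 0.20, against 0.06 over all genes. The 4 at 1 or more were Col4a1, Col4a2, Col18a1 and Sparc, of which Sparc is also in the interstitial matrix list. Col4a1, which encodes the main type IV collagen chain with Col4a2, had 48 UMIs in 14 of the 29 WT-labelled cells and 243 UMIs in 48 of the 65 cells labelled STK25 wKO. Its level was 668 (493 to 886) and 1771 (1556 to 2009) CPM, a log2 ratio of 1.41 (0.95 to 1.88). Col4a2 had 39 UMIs in 14 cells and 155 UMIs in 45 cells, or 543 and 1129.8 CPM, a log2 ratio of 1.06 (0.54 to 1.60). Both chains were thus seen in a larger share of cells and at a higher summed level in the library labelled STK25 wKO, where the median depth of fibroblast-poor members was 1511 UMIs against 2107. UMIs of endothelial genes moved in the same direction. The 12 endothelial markers summed to 292 and 692 CPM in the fibroblast-poor members, a log2 ratio of 1.24 whose interval began at 0.55. At least 1 such UMI was seen in 10 of 29 and 40 of 65 cells, with at most 10 and 14 in a cell. In the 19 and 25 fibroblast-poor members with no such UMI, a limit set after the data were seen, Col4a1 had 24 and 29 UMIs and a log2 ratio of 0.31 (-0.52 to 1.15), and Col4a2 had 26 and 22 UMIs and a log2 ratio of -0.21 (-1.09 to 0.67). In the 30 and 38 of all members with no such UMI, the log2 ratio of Col4a1 was 0.38 (-0.05 to 0.80). That of Col4a2 was 0.58 (0.10 to 1.07) there, above 0 with an interval that left out 0. In the fibroblast-poor members without endothelial UMIs the ratio of Col4a1 was thus smaller, that of Col4a2 lay below 0, and both intervals included 0. Esam, 1 of the 12, had 31 of the 95 UMIs in the fibroblast-poor members under the STK25 wKO label. It stood at 226 CPM in them, against 37.9 CPM in smooth muscle cells and 330.2 CPM in endothelial cells. As a mean over cells rather than over UMIs, with 20 CPM added, the log2 ratios were 1.23 and 0.90. Endothelial cells, which make the same membrane, had 864 and 1763 CPM of Col4a1 and 561 and 1195 CPM of Col4a2. Fibroblasts had 506 and 593 CPM of Col4a1 and smooth muscle cells 771 and 466 CPM. Endothelial cells thus differed between the libraries in the same direction as the members.

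Col18a1, the source of endostatin, had 24 and 118 UMIs in fibroblast-poor members, or 334 and 860.1 CPM, a log2 ratio of 1.36 (0.72 to 2.06), but 58.3% of its UMIs in the library labelled WT came from 1 cell. Sparc, a collagen-binding matricellular protein, had 115 and 528 UMIs, or 1601 and 3849 CPM, a log2 ratio of 1.27 (0.97 to 1.57), which as a mean over cells was 0.54. Among the others of the list, Sparcl1 had a log2 ratio of 0.04 (-0.43 to 0.53), Lama4 of -0.26 (-1.25 to 0.78) and Lamc1 of -0.37 (-1.27 to 0.55). The laminin chains and Sparcl1 did not go with the collagen chains. Over all members the ratios were 0.82 (0.54 to 1.11) for Col4a1, 0.92 (0.57 to 1.27) for Col4a2, 0.79 (0.38 to 1.21) for Col18a1 and 0.34 (0.17 to 0.51) for Sparc. Fibroblast-marked members of the library labelled WT had 1104 CPM of Col4a1 and 3667 CPM of Sparc, so the measured gap was smaller where they were counted. Of the fibroblast-poor members of the library labelled STK25 wKO, 2 had at least 20 UMIs of blood cell genes, and without them the ratios were 1.22 (0.75 to 1.71) for Col4a1, 1.00 (0.47 to 1.55) for Col4a2, 1.09 for Col18a1 and 0.98 for Sparc.

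Col4a1 and Col4a2 lie head to head on chromosome 8 in GRCm38, Col4a1 on the minus strand at chr8:11198423-11312826 and Col4a2 on the plus strand at chr8:11312805-11449287, and their gene records share 22 bases. Their promoter windows from RefSeq (GRCm38.p6) are chr8:11312777-11313076 on the minus strand and chr8:11312555-11312854 on the plus strand. They overlap and are shown because both genes had higher levels over all fibroblast-poor members of the library labelled STK25 wKO, with the limit on endothelial UMIs given above. Capitals mark GCGTG, the hypoxia core.
Col4a1: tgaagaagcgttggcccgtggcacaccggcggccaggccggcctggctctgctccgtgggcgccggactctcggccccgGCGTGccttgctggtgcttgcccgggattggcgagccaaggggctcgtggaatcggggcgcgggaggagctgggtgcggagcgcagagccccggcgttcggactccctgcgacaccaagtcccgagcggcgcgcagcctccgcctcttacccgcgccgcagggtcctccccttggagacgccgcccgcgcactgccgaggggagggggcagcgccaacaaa
Col4a2: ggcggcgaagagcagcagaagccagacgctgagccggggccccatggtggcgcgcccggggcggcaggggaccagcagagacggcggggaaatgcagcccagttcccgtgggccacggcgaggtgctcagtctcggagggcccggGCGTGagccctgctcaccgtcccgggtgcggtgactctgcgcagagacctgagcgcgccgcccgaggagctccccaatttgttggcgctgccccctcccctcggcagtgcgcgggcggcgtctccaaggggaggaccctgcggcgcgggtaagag
Each window held 1 such match and 0 matches to TGGGAA. Windows with a match to the hypoxia core are common, at 43.8% of all, and nothing about a factor follows from it.

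**Figure D4:**
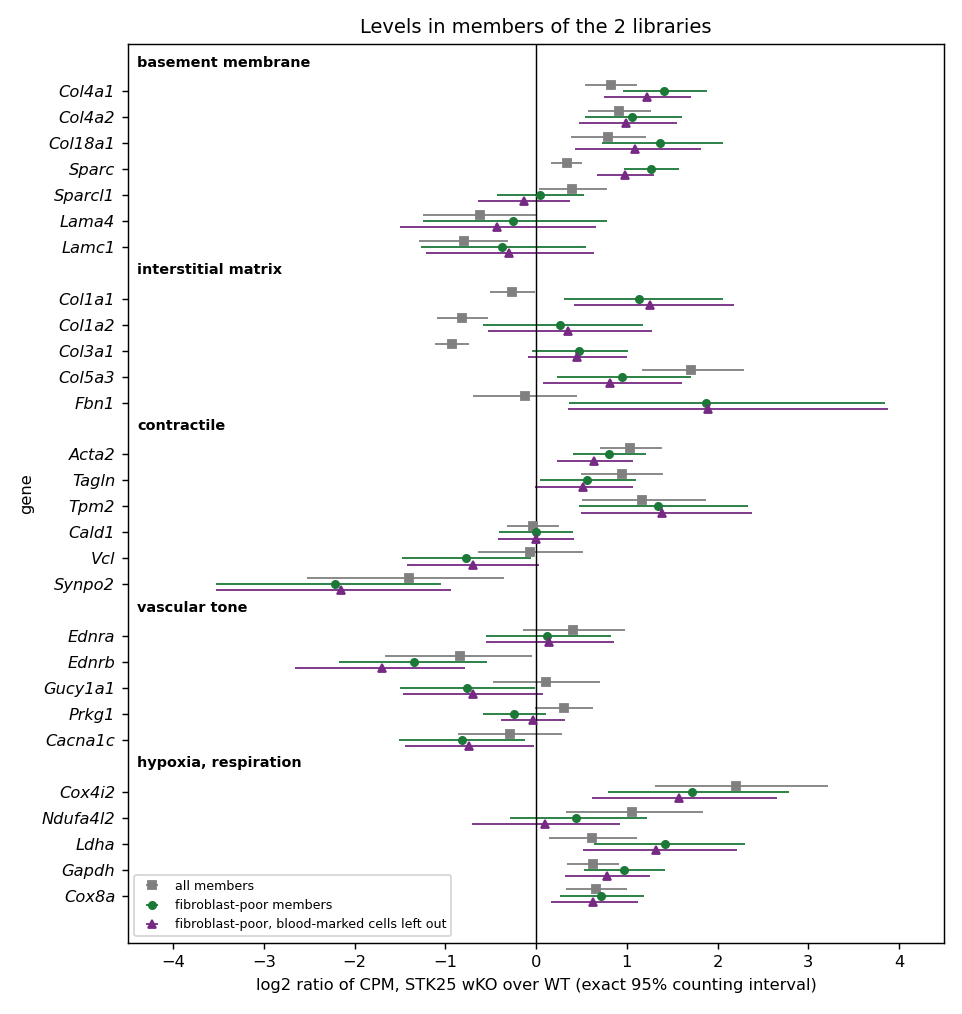
Log2 ratio of CPM, STK25 wKO over WT, with exact 95% counting intervals, for listed genes in all members (grey squares), fibroblast-poor members (green circles) and fibroblast-poor members without the 2 cells rich in blood cell UMIs (purple triangles). Col4a1 lies at 0.82, 1.41 and 1.22, and Col3a1 at -0.92 in all members and 0.47 in fibroblast-poor members.

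**Figure D5:**
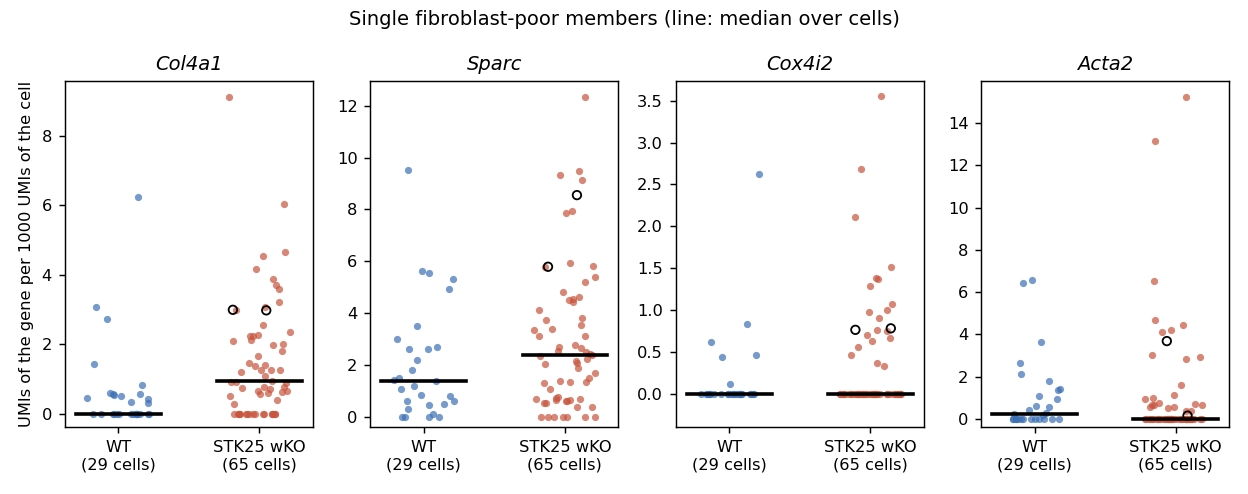
UMIs of Col4a1, Sparc, Cox4i2 and Acta2 per 1000 UMIs of the cell in each of the 29 and 65 fibroblast-poor members, with a line at the median over cells and open circles for the 2 cells rich in blood cell UMIs. The libraries overlap for each gene, and Col4a1 had a UMI in 48.3% of cells under the WT label and 73.8% under the STK25 wKO label.

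Interstitial matrix genes turned with the kind of member. Over all members their median log2 ratio was -0.57, with 2 of 29 at 1 or more (Col5a3 and Adamts4) and 4 at -1 or less (Col8a1, Loxl1, Mmp2 and Ccn2). In fibroblast-poor members the median was 0.43, with 5 of 25 at 1 or more (Col1a1, Fbn1, Sparc, Mmp14 and Adamts4) and 1 at -1 or less (Adamts1). The shares at 1 or more were 6.90% over all members and 20% in fibroblast-poor members, against 4.48% and 8.98% over all genes. At -1 or less they were 13.8% and 4%, against 5.17% and 9.78%. Col3a1, a fibrillar collagen, had 581 and 388 UMIs in all members, a log2 ratio of -0.92 (-1.11 to -0.74). In fibroblast-poor members it had 43 and 114 UMIs and a log2 ratio of 0.47 (-0.04 to 1.01). Col1a1 had a log2 ratio of -0.26 (-0.51 to -0.02) over all members and of 1.14 (0.31 to 2.06) in fibroblast-poor members, on 15 and 63 UMIs. The sign for these collagens was thus set by which members were counted. Mmp2, a gelatinase of fibroblasts, had 93 and 41 UMIs in all members but 1 and 4 in fibroblast-poor members. Col5a3 had 34 and 141 UMIs in all members and a log2 ratio of 1.71 (1.16 to 2.30), and in fibroblast-poor members 21 and 77 UMIs and a ratio of 0.94 (0.23 to 1.71). Adamts4, a protease that cuts proteoglycans, had 4 and 35 UMIs in 3 and 12 fibroblast-poor members and a log2 ratio of 2.20 (0.71 to 4.15). Its relative Adamts1 had 24 and 18 UMIs and a log2 ratio of -1.35 (-2.32 to -0.41). Of a short list tied to activated fibroblasts, 7 had at least 20 UMIs in fibroblast-poor members, with a median of 0.64 and 1 at 1 or more (Thy1, at 1.18, interval -0.13 to 2.75), whereas over all members the median of 9 was -0.54.

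Contractile genes had little common direction. Their median log2 ratio was 0.20 over all members and 0.11 in fibroblast-poor members, where 1 of 19 lay at 1 or more (Tpm2) and 2 at -1 or less (Synpo2 and Rasl12). These shares of 5.26% and 10.5% stood against 8.98% and 9.78% over all genes. Over all members Acta2, Tpm2, Des and Ppp1r14a lay at 1 or more and Synpo2 at -1 or less. They were 19.0% and 4.76% of 21 genes, against 4.48% and 5.17%. Acta2, smooth muscle actin, was unevenly spread over members. It had 68 UMIs in 16 of 29 fibroblast-poor members under the WT label and 226 UMIs in 26 of 65 under the STK25 wKO label, with 4 and 10 cells at 5 UMIs or more. The log2 ratio of the summed level was 0.80 (0.40 to 1.21), but as a mean over cells it was 0.15, and a larger share of cells had a UMI in the library labelled WT. No UMI of Acta2 or Tagln was seen in 12 (41.4%) and 35 (53.8%) of the fibroblast-poor members. Smooth muscle cells had 3093 and 10782 CPM of Acta2, and the members 947 and 1647 CPM. Tpm2, a tropomyosin, had 13 and 63 UMIs and a log2 ratio of 1.34 (0.47 to 2.33), with 0.39 as a mean over cells. Cald1, caldesmon, had 80 and 152 UMIs and a log2 ratio of -0.01 (-0.41 to 0.40). Synpo2, which encodes an actin-bundling protein of muscle, had 22 and 9 UMIs in 10 and 9 cells and a log2 ratio of -2.22 (-3.53 to -1.05), and Rasl12, a small GTPase, had 13 and 8 UMIs and a log2 ratio of -1.63 (-3.11 to -0.25).

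Vascular tone genes had a median log2 ratio of 0.10 over all members and -0.24 in fibroblast-poor members. Over all members 3 of 13 lay at 1 or more (Gucy1b1, Rgs4 and Rgs16) and 1 at -1 or less (Kcnma1). In fibroblast-poor members 0 of 13 lay at 1 or more and 2 at -1 or less (Ednrb and Kcnma1). The shares at 1 or more were 23.1% over all members and 0% in fibroblast-poor members, against 4.48% and 8.98% over all genes. At -1 or less they were 7.69% and 15.4%, against 5.17% and 9.78%. Kcnma1, the large-conductance potassium channel, had 23 and 2 UMIs in 5 and 2 cells, and 56.5% of the 23 came from 1 cell. Gucy1a1, a subunit of the nitric oxide receptor, had 31 and 35 UMIs, a log2 ratio of -0.76 (-1.50 to -0.01), and Gucy1b1, its partner subunit, had 17 and 46 UMIs, a log2 ratio of 0.50. Cacna1c, the pore of the L-type calcium channel, had 36 and 39 UMIs and a log2 ratio of -0.82 (-1.51 to -0.12), and Prkg1 had a log2 ratio of -0.24 (-0.59 to 0.11). The ratios of the receptor subunits lay on opposite sides of 0, but the interval of Gucy1a1 reached -0.01. Without the cells rich in blood cell UMIs Gucy1b1 had a log2 ratio of 0.43 (-0.44 to 1.35). Of the 13 genes 10 lay below 0, where 971 of all 2005 genes did.

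Of the Notch pathway outside Notch3, 7 genes had at least 20 UMIs over all members, with a median log2 ratio of -0.27 and 0 past 1. In fibroblast-poor members 4 did, with a median of -0.35 and 1 at -1 or less. That gene was Maml3, a coactivator of the Notch complex, with 31 UMIs in 12 cells and 16 UMIs in 7 cells and a log2 ratio of -1.89 (-2.86 to -0.97). It was not a gene that marked the members, since the other kept cells had 217 and 159 CPM of it against 432 and 117 CPM. Notch3 itself had 55 and 61 UMIs in fibroblast-poor members and a log2 ratio of -0.78 (-1.33 to -0.23), and 0.03 (-0.50 to 0.56) over all members. Since Notch3 is a rule marker, these are values of the cells picked and not a comparison. Genes of exchange with the endothelium had a median of 0.23 over 15 genes in all members, with Gja4 at 1.30 (0.17 to 2.56) and Gja1 at -1.46 (-2.58 to -0.42), both gap junction genes. In fibroblast-poor members Gja1 had 0 and 4 UMIs, and 6 listed genes had a median of 0.38, with Tgfbr2, a TGF-beta receptor, at 1.46 (-0.11 to 3.46) on 4 and 21 UMIs.

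Genes of hypoxia and glycolysis lay mostly above 0. Over all members 15 of 16 did, where 1881 of all 3794 genes did, with a median log2 ratio of 0.48. In fibroblast-poor members 11 of 11 did, against 1034 of 2005 genes, with a median of 0.46, against 0.06 over all genes. At 1 or more lay 2 over all members (Cox4i2 and Hilpda) and 3 in fibroblast-poor members (Ldha, Tpi1 and Cox4i2). These were 12.5% and 27.3%, against 4.48% and 8.98% over all genes. At -1 or less lay 1 over all members (Hk2), or 6.25%, against 5.17%. Ldha, which makes lactate from pyruvate, had 16 UMIs in 13 cells and 82 UMIs in 34 cells of the fibroblast-poor members, or 223 (127 to 362) and 598 (475 to 742) CPM, a log2 ratio of 1.42 (0.64 to 2.30). Tpi1, a glycolytic isomerase, had 9 and 38 UMIs and a log2 ratio of 1.14 (0.07 to 2.38), and Gapdh had 54 and 201 UMIs and a log2 ratio of 0.96 (0.52 to 1.42). The same genes were present in the other kept cells at 696 and 849 CPM for Ldha, 353 and 428 CPM for Tpi1 and 2023 and 2963 CPM for Gapdh. They were thus lower in the members than in the other kept cells of both libraries, and the part of those other levels in the members' values was not tested.

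Respiratory chain genes lay mostly above 0. Of 35 over all members 31 did, where 1881 of all 3794 genes did, with a median of 0.36 and 0 past 1. In fibroblast-poor members 32 of 34 did, against 1034 of 2005 genes, with a median of 0.51. At 1 or more lay 3 (Ndufb7, Ndufb8 and Atp5g1), or 8.82%, close to the 8.98% over all genes. Cox6c, a subunit of cytochrome c oxidase, had 26 and 102 UMIs and a log2 ratio of 1.04 (0.41 to 1.72) in fibroblast-poor members. Cox8a, another subunit, had 53 and 166 UMIs and a log2 ratio of 0.71 (0.26 to 1.19), against 1221 and 1801 CPM in the other kept cells. These genes are read in every cell type, and their level around the members was also higher in the library labelled STK25 wKO for each of the 3 past 1. The median share of mitochondrial UMIs per fibroblast-poor member was 1.83% and 2.46%. The 5 cell cycle genes with enough UMIs in fibroblast-poor members had a median of 0.26 (7 genes and 0.56 over all members), with Hmgb2 at 1.17 (-0.05 to 2.60).

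Inflammatory mediators, which pericytes can release, had a median of 0.10 over 22 genes in all members and 0.22 over 10 in fibroblast-poor members. Over all members 4 lay at 1 or more (Ccl8, Cxcl1, Saa3 and Lcn2) and 3 at -1 or less (Ccl7, Cxcl5 and Vcam1). They were 18.2% and 13.6% of the list, against 4.48% and 5.17% over all genes. In 6 of these 7 genes, at least 65% of the UMIs of 1 library came from 1 cell, as with Saa3, where 98.8% of the 83 UMIs of the library labelled STK25 wKO did. The exception was Cxcl1, a neutrophil attractant, with 24 and 118 UMIs and a log2 ratio of 1.96 (1.31 to 2.65) over all members. In fibroblast-poor members Cxcl1 had 13 and 48 UMIs and a log2 ratio of 0.95, and the member of the list at 1 or more was Tnfrsf1a, the TNF receptor, at 1.45 (0.04 to 3.18). Of NF-kB genes, 9 over all members had a median of -0.02 and 8 in fibroblast-poor members a median of -0.28. Tnfaip3, the NF-kB-induced brake A20, had 5 UMIs in 5 cells and 55 UMIs in 18 cells of the fibroblast-poor members, a log2 ratio of 2.53 (1.22 to 4.20). Rel lay at -1.22 (-2.67 to 0.19), and 97.8% of the 46 Traf1 UMIs of the library labelled WT came from 1 cell. A single cell thus carried the difference in Traf1, whereas Tnfaip3 was spread over cells.

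Immediate early and stress genes, which dissociation can induce, had a median log2 ratio of 0.21 over 25 genes in all members and -0.004 over 24 in fibroblast-poor members. Fos had 171 and 381 UMIs and a log2 ratio of 0.22 (-0.04 to 0.49) and Jun 167 and 298 UMIs and a ratio of -0.10 (-0.38 to 0.18) in fibroblast-poor members. Past 1 lay Ier3 over all members, and Ier3, Hspa1b and Klf9 (the last at -1.18, interval -2.09 to -0.29) in fibroblast-poor members. Ier3, an early response gene, had 7 and 84 UMIs and a log2 ratio of 2.65 (1.55 to 4.01), which was 0.40 (-0.98 to 1.94) without the 2 cells rich in blood cell UMIs. Hspa1b, a heat shock gene, had a log2 ratio of 1.11 (0.57 to 1.67). Without the 2 cells rich in blood cell UMIs it was 1.28 (0.75 to 1.85), against 0.30 (-0.14 to 0.76) for its near-identical copy Hspa1a. How reads common to both copies were counted was not tested. Fos and Jun, the most counted of the list, thus lay near 0 while Ier3 depended on 2 cells.

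EGFR and its ligands, on which the study centred, were sparse in the members. Of 11 genes, 2 had at least 20 UMIs over all members. Areg, the ligand amphiregulin, was not among them, with 2 UMIs in 1 cell and 15 UMIs in 10 cells of all members and a log2 ratio of 2.56 (0.46 to 5.74). In fibroblast-poor members it had 2 and 12 UMIs and a log2 ratio of 1.65 (-0.52 to 4.85), and its 27.8 and 87.5 CPM there lay below the 234 and 246 CPM of the other kept cells. Ereg, the ligand epiregulin, had 60 and 5 UMIs in all members, or 363 (277 to 468) and 23.9 (7.76 to 55.8) CPM, but 0 and 1 UMI in fibroblast-poor members, so that it lay in fibroblast-marked cells. Egfr had 13 UMIs in 6 cells and 7 UMIs in 6 cells of the fibroblast-poor members, a log2 ratio of -1.83 (-3.39 to -0.40), at 181 and 51.0 CPM against 112 and 88.8 CPM in the other kept cells. Over all members its log2 ratio was -0.98 with 20 CPM added. In members with at least 5 rule-marker UMIs Egfr had 9 and 15 UMIs and a log2 ratio of 0.04 (-1.24 to 1.42), so its lower level depended on which members were counted. The Stk25 family and the complex it sits in had a median of 0.05 over 7 genes in all members and 0.13 over 3 in fibroblast-poor members, with 0 past 1.

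Markers of other cells were present in the members, some at levels that differed between the libraries. The 12 fibroblast markers summed to 12107 CPM in the members under the WT label and 7067 CPM in those under the STK25 wKO label, against 1146 and 1043 CPM in the other kept cells, and ran from 0 to 334 and from 0 to 332 UMIs per member. The 10 neutrophil markers summed to 145 and 2843 CPM, against 547 and 7585 CPM in the other kept cells and 283 and 2104 CPM in B cells, and 72 of 82 members of the library labelled STK25 wKO had at least 1 such UMI, against 18 of 44. Retnlg, Csf3r, Cxcr2, Mmp9 and Hdc were at 0 in the members under the WT label, and Cxcr2 and Ly6g in the members under the STK25 wKO label. These UMIs ran from 0 to 2 and from 0 to 300 per member, and 1 cell held 50.4% of those under the STK25 wKO label, without which the sum was 1454 CPM. Neutrophil RNA was thus higher in members, B cells and the remaining cells alike in that library. The 12 epithelial markers summed to 1223 and 2389 CPM in the members, near the 1916 and 2434 CPM of B cells and below the 11001 and 14272 CPM of the other kept cells. The 12 endothelial markers summed to 157 and 478 CPM, with Cdh5, Kdr and Cldn5 at 0 in the members under the WT label. The 10 macrophage and dendritic cell markers summed to 157 and 865 CPM (579.8 CPM without the highest cell of the STK25 wKO label) and the 10 T and NK cell markers to 96.9 and 210.2 CPM (97.8 CPM without it). The 8 smooth muscle markers summed to 503 and 545 CPM (log2 ratio 0.12, -0.30 to 0.54). The 10 B and plasma cell markers summed to 188 and 172 CPM (log2 ratio -0.13, -0.86 to 0.62). Of 8 glial markers 1 was seen (Gpm6b), with S100b and Sox10 at 0, and of 8 mesothelial markers 2 were, with Msln and Upk3b at 0. Their part in the results above was not tested.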

How the data were processed

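Raw UMI counts of 2 libraries were deposited by the authors, a value for each gene in a barcode, made with Cell Ranger 7.1.0 on mm10 per the labels. Total counts were 38737373 UMIs in 12542 barcodes (labelled WT) and 66297749 UMIs in 14168 barcodes (labelled STK25 wKO). A barcode was kept where it had 200 or more genes and no more than 25% mitochondrial UMIs, and doublets were not removed. UMIs were summed per gene over the members of a library and given as CPM with exact Poisson intervals. Shares had Clopper-Pearson intervals, and log2 ratios exact conditional binomial intervals. With 1 library per group no test, p-value or number of changed genes was computed. Smooth muscle and endothelial cells needed at least 3 UMIs of their own class's genes, fibroblasts 5 and B cells 2. Fibroblasts, endothelial cells and B cells also had to have fewer than 3 UMIs of the rule markers. In smooth muscle cells the rule-marker sum could not be larger than that of the smooth muscle genes. Named genes were the rule markers, Stk25, the 4 most counted genes of each list and those past a log2 ratio of 1, the 15 that went furthest with the rule and, with at least 30 UMIs, the largest ratios (10 each way above other cells, 5 each way among the rest). Of the most counted genes, those a result turned on are named. The laminins, Col3a1, Mmp2, Pdpn and Egfr beside their lists, and a few more, were chosen after their values were seen. The members and the 16 lists were chosen with earlier results of these data known. Some genes that these rules name are not reported here. The ratio step was tested on simulated gene totals drawn without spread between cells. That test does not cover genes with most of their UMIs in 1 cell. Promoters were taken from RefSeq and gene positions from GENCODE M21. Scripts ran on scanpy 1.11.5, scipy 1.17.1, numpy 2.4.6, pandas 2.3.3 and matplotlib 3.10.9 under Python 3.11.15.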

Additional observations from a re-analysis of the deposited data

How the results depend on the processing

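No paired analysis was possible because each group had 1 library. Values are ratios of STK25 wKO over WT in all members, with 20 CPM added for single genes, for 120 to 124 genes under 11 of 16 alternatives and lists or 2 to 6 chosen genes under the others. Those on fibroblast, blood cell and endothelial UMIs were chosen after the data were seen. Leaving out members with immune UMIs turned the share ratio to 0.952 and the ratio per endothelial cell to 0.692. The median over genes moved to 0.022 with at least 5 rule-marker UMIs, 0.055 without fibroblast-marked members and 0.010 without these and the blood-rich cells. Genes past a log2 ratio of 1 were 366 (170 higher, 196 lower, 34 listed). They were 126 (60, 66, 18) at a minimum of 50 UMIs, 1071 (501 higher, 570 lower) at 1 UMI, and 555 (262 higher) with 1 CPM added.

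These single genes turned. With at least 5 rule-marker UMIs: Ccl7 0.61, Ccn2 0.65, Cxcl13 0.73, Cxcl5 0.21, Gja1 1.98, Saa3 -1.83, Vcam1 0.35. With doublets removed: Hmcn1 0.32, Saa3 -1.83. With fewer than 4 epithelial UMIs: Bcl2a1b 0.63, Ccl8 -0.051, Cxcl5 0.56, Ier3 -0.48, Mmp10 -0.52, Muc2 1.54, Rgs1 2.08, Saa3 -2.00, Traf1 0.85. Without fibroblast-marked members: Ccl7 0.45, Ccn2 0.43, Ereg 0.45, Gja1 1.30, Igfbp6 1.07, Mmp2 0.54, Pdgfra 0.24, Pdpn 0.45, Rgs16 -0.15, Spon1 0.45, Vcam1 0.30. Without these and the blood-rich cells: Ccn2 0.64, Des -0.10, Ereg 0.52, Gja1 1.44, Igfbp6 0.52, Mmp2 0.68, Pdgfra 0.40, Pdpn 0.52, Spon1 0.52, Vcam1 0.43. Without immune UMIs: Basp1 1.04, Bcl2a1b 1.90, Ccn2 1.04, Mmp12 -0.68, Rgs1 1.49, Saa3 -1.46. As a mean over cells: Des -0.083. The cause was not tested.

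The members number 44 and 82, so a gene with few UMIs has a wide interval, and a level under 3 UMIs of a library cannot be told from 0. Leaving out a library was not possible, and spread between mice or tumours is not measured.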

Other observations

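Genes were also ranked whether or not they were in a list. Those with the largest log2 ratios among the genes at least 2 times as high in members as in other kept cells rested in many cases on 1 cell. Over all members, 5 of the 10 highest (Mmp13, Hp, Mmp10, Mmp12 and Saa3) had over 50% of their UMIs in 1 cell, and the others included Fabp4, Ano1, Art3 and Higd1b. Higd1b is a rule marker, so its ratio here and below is a value of the cells picked and not a comparison. Ano1, a calcium-activated chloride channel of mural cells, had 11 UMIs in 7 cells and 73 UMIs in 27 cells of all members, a log2 ratio of 2.39 (1.47 to 3.45). Fabp4, a fatty acid carrier of capillary endothelium and adipocytes, had 9 UMIs in 2 cells and 65 UMIs in 19 cells, a log2 ratio of 2.51 (1.50 to 3.70), and stood at 74.7 and 98.4 CPM in the other kept cells.

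Of the 10 lowest over all members, 5 (Cxcl13, Nrg1, Wif1, Hmcn1 and C7) likewise rested on 1 cell, and the others were Ereg, Igfbp6, Spon1, Pdpn and Nr4a2. Igfbp6, which binds insulin-like growth factors, had 69 and 8 UMIs and a log2 ratio of -3.45 (-4.72 to -2.39), Spon1 45 and 5 UMIs and Pdpn 39 and 5 UMIs. In fibroblast-poor members the 10 highest were Mmp12, Fxyd5, Ier3, Tnfaip3, Piezo2, Tcim, Adamts4, Ecm1, Higd1b and Fabp4, of which 2 rested on 1 cell. Piezo2, a mechanically gated channel, had 3 and 37 UMIs and a log2 ratio of 2.69 (1.03 to 5.03). Of the 10 lowest, 7 rested on 1 cell (Hmcn1, Bcl2a1b, Basp1, Nr4a2, Traf1, Chsy3 and Rgs1), and the others were Sorbs2, Auts2 and Slc6a6, with log2 ratios of -3.39, -3.47 and -3.05.

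Among genes that were not above the other kept cells, the highest ratios over all members were those of Cxcl2, Retnlg, S100a8, S100a9 and Il1b, all genes of neutrophils or of myeloid inflammation, and in fibroblast-poor members Cxcl3 took the place of Il1b. Cxcl2 had 4 and 422 UMIs over all members, 57.6% of the latter in 1 cell, and the other kept cells had 248 and 1961 CPM of it. S100a9 had 5 and 176 UMIs, and the other kept cells 92.8 and 3213 CPM. In 4 of the 5 genes over all members (Cxcl2, Retnlg, S100a8 and S100a9) and in all 5 in fibroblast-poor members, 1 cell held over 50% of the UMIs under the STK25 wKO label. Without the 2 cells rich in blood cell UMIs, S100a9 had 4 and 63 UMIs in fibroblast-poor members and a log2 ratio of 3.28 (1.85 to 5.20). The lowest were Muc2, Ankrd12, Cxcl5, Numa1 and Tbl1x over all members and Muc2, Celf2, Gmds, Maml3 and Lncpint in fibroblast-poor members. Muc2, the goblet cell mucin, had 46 and 20 UMIs over all members, 71.7% of the former in 1 cell, and the other kept cells had 525 and 480.0 CPM of it.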
